A study of Rattus norvegicus with 12 samples.

Results

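Ketamine was compared with saline in prefrontal cortex from female Sprague-Dawley rats that had all been exposed to betamethasone before birth. The comparison covered 8 of the 12 samples of the study, 4 given ketamine and 4 given saline, chosen by their titles, and all non-control probes of the array in each sample's own dye channel. Dams of both groups received 2 injections of betamethasone, a synthetic glucocorticoid, at 0.4 mg/kg each on gestational day 15. Per the labels, pups that showed infantile spasms on postnatal day 14 then received ketamine at 35 mg/kg or saline, and cortex was taken on postnatal day 15, although the developmental-stage field gives another age. Litters had been reduced to 4 females, and the labels do not tell which pups shared a dam. The remaining 4 samples, from animals given saline at both times, lay on another slide. They entered the normalization and the fit, and so its standard errors, and are otherwise given only as a level beside named genes. Slide and prenatal exposure cannot be told apart for them. The design asks what a single dose of ketamine changes in transcripts of a cortex already exposed to a corticosteroid.

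Ketamine is an anaesthetic that blocks the open channel of the NMDA receptor, a glutamate-gated cation channel built from an obligatory GluN1 subunit and regulatory GluN2 or GluN3 subunits. In adult rodent cortex it is known for brief disinhibition of pyramidal cells and for activating BDNF, mTOR and eEF2 kinase signalling. In the immature brain it is also known for apoptosis of neurons at high exposure. Immediate early genes, NMDA receptor subunits, translation regulators and apoptosis genes were therefore described first, followed by inhibitory, ion channel, vesicle, glial and vascular genes.

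Samples 1 and 2 of each group were hybridised to one array and samples 3 and 4 to another, so the 8 samples lay on 4 arrays of 1 slide. Between 71.4% and 81.5% of the 42877 non-control spots were well above background in each sample. Precision was limited by having 2 arrays in each group. The array of ketamine samples 1 and 2 stood apart: 8.23% of its spots lay in areas rich in departing spots and were masked, against 0.44% to 2.31% on the other 3 arrays of the slide. Principal component 1, which held 45% of the variance of the 8 samples, placed ketamine samples 1 and 2 at 24.91 and 20.98. The other 6 samples lay between −12.58 and −5.16, with ketamine samples 3 and 4 (−5.54 and −6.32) inside the range of the saline samples. The median absolute log2 difference was 0.151 between the 2 ketamine arrays and 0.0608 between the 2 saline arrays (16641 genes measured in all 8 samples). From the mean of the saline samples, ketamine samples 1 and 2 differed by 0.155 and samples 3 and 4 by 0.0507. Values are given below for each sample so that the arrays can be told apart.

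**Figure D1:**
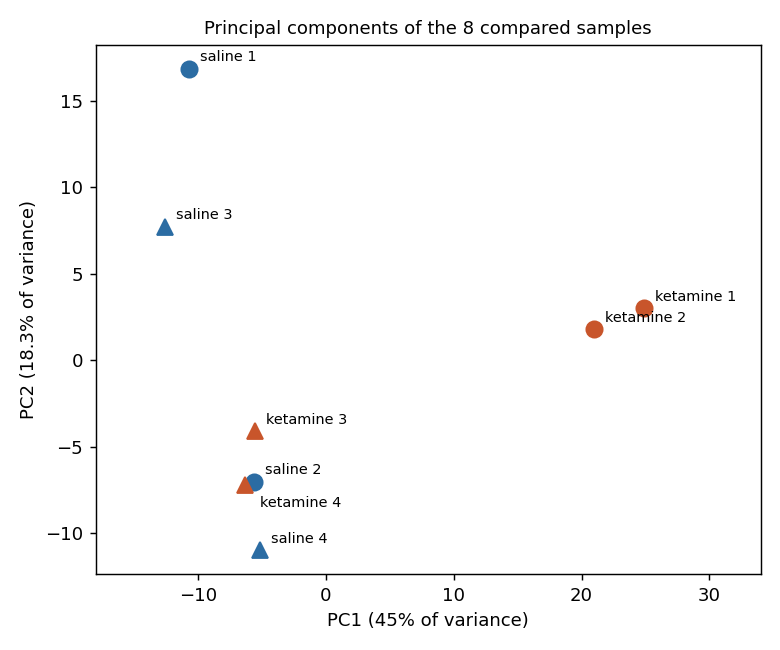
Principal components 1 and 2 of the 8 compared samples, in component score units; blue is saline, orange is ketamine, circles are samples 1 and 2 and triangles samples 3 and 4. Ketamine samples 1 and 2, which share an array, lie at 24.91 and 20.98 on component 1, and the other 6 samples between −12.58 and −5.16.

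The tissue carried its markers. All 6 tested interneuron markers, 4 of 5 excitatory cortical neuron markers and all 5 oligodendrocyte and all 5 microglia markers were well above background in each of the 8 samples; the remaining excitatory marker, the vesicular glutamate transporter Slc17a7, was missing in saline sample 4, whose spot was flagged as an outlier. Of the 5 choroid plexus markers, Kl, Otx2 and Clic6 were not well above background in enough samples to be tested. Ttr was well above background in 4 saline and 3 ketamine samples, and Folr1 in 2 and 4. Striatal and thalamic markers, which would mark tissue beyond the cortex, were also present (4 and 2 of them well above background in all 8 samples): their summed log2 intensity was 11.53 to 12.12 in saline and 11.31 to 11.92 in ketamine for the 4 striatal markers, and 9.80 to 9.96 and 9.71 to 9.93 for the 2 thalamic ones. How much tissue they stand for was not tested.

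One gene passed the test across all genes. Capza3, which encodes a capping protein alpha subunit of germ cells that binds actin filament ends, fell after ketamine by 0.60 in log2 units (SE 0.07; limma, adjusted p = 0.0468). Its log2 intensity was 7.76, 7.81, 7.70 and 7.75 in the saline samples and 7.15, 7.15, 7.11 and 7.24 in the ketamine samples. All 4 saline samples were higher than all 4 ketamine samples, and the gap exceeded the spread within either group (SD 0.05 and 0.06, n = 4 each). No ketamine sample was well above background, so the change is a bound: Capza3 was at least 1.47-fold lower after ketamine. It entered the test only through the saline group, where it was high. With all 8 samples required above background it was not tested, 0 genes were called and the smallest adjusted p was 0.956 (limma). With the scanner software's processed signals, from which background is subtracted, its change was −3.72 (adjusted p = 0.000597, limma). The 4 control samples were not well above background either, with a mean of 7.23 ± 0.02 (SD, n = 4). The call for Capza3 was lost when any of the 8 samples was left out (adjusted p from 0.0517 to 0.314). In limma it was also lost without masking (adjusted p = 0.193), with the 8 samples normalized alone (0.152), with a surface trend of each array removed (0.792), with the array as the replicate (0.959), and without the first or the second saline array (0.165 and 0.123). When the arrays were centred on their median in place of quantile normalization, or scaled to the 75th percentile with no loess step either, Capza3 lay 0.11 above the median of all genes, so the direction also turned.

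Capza3 was 1 of 16862 tested genes (0.00593%), and no gene was called higher. Among genes with a symbol, the next smallest p-values belonged to Hmgb4, which encodes an HMG-box protein of the testis, C5h1orf50, an uncharacterized gene, and Sash3, a lymphocyte adaptor gene. Hmgb4 was at 7.98, 8.04, 8.57 and 8.38 in saline and at 7.27, 7.27, 7.31 and 7.30 in ketamine (change −0.95, SE 0.12, adjusted p = 0.075, limma). Sash3 was at 7.65, 7.67, 8.03 and 8.05 in saline and at 7.29, 7.30, 7.21 and 7.30 in ketamine (change −0.57, SE 0.10, adjusted p = 0.519, limma). For both genes the saline samples of one array were higher than those of the other, and every saline sample was higher than every ketamine sample. As for Capza3, all 4 saline samples and none of the ketamine or control samples were well above background, so the changes are bounds of at least 1.94-fold and at least 1.47-fold lower. Only 4 probes showed this pattern, the fourth being one without a gene symbol (change −1.02, adjusted p = 0.269, limma), whose p lay between those of Hmgb4 and C5h1orf50, while 21 genes showed the opposite one, with changes from 0.0519 to 0.879.

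The probes behind these 3 genes are shown because each gene's value rests on a single 60-base oligonucleotide close to background. Each sequence is from the deposited scanner files, 5′ to 3′, in lower case with no base singled out, and each has at least 1 reading frame without a stop codon before its last codon. Capza3 lay at chr4:177163820-177163879 (+ strand), Hmgb4 at chr5:147486516-147486575 (− strand) and Sash3 at chrX:134519726-134519785 (+ strand), on the rn4 build.
Capza3: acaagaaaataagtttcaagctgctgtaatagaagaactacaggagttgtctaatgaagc
Hmgb4: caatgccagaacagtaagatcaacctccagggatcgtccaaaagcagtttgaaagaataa
Sash3: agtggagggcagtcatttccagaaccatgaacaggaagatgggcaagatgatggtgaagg
A second probe of Hmgb4, not well above background in any of the 8 samples, gave a change of −0.03 (SE 0.10). The second probe of Sash3, well above background in 2 saline and 4 ketamine samples, gave 0.06 (SE 0.05). The spots of Hmgb4 and Sash3 lay in the same column of the array, in rows 389 and 387, and Capza3 in row 371. Probes within 5 rows and columns of these spots had median changes of −0.05, −0.06 and −0.02, for Hmgb4, Sash3 and Capza3, and 54 of 79, 57 of 85 and 46 of 75 of them lay below 0. Of these neighbours 0, 1 and 0 were lower than the gene itself. Lmbr1l, another gene of the lower set described below, lay 2 rows from Capza3 in column 70, and C5h1orf50 (row 444, column 65) lay beside Taldo1 (row 445, column 66). Exon and UTR positions on rn4 were not used here.

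C5h1orf50 was the gene with the smallest p among those well above background in all 8 samples. It was at 9.75, 9.82, 9.75 and 9.85 in saline and 9.10, 9.28, 8.84 and 9.14 in ketamine (change −0.70, 95% interval −0.95 to −0.45, adjusted p = 0.309, limma). The groups did not overlap, and both ketamine arrays lay below both saline arrays. Control samples averaged 9.61 ± 0.15 (SD, n = 4).

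**Figure D2:**
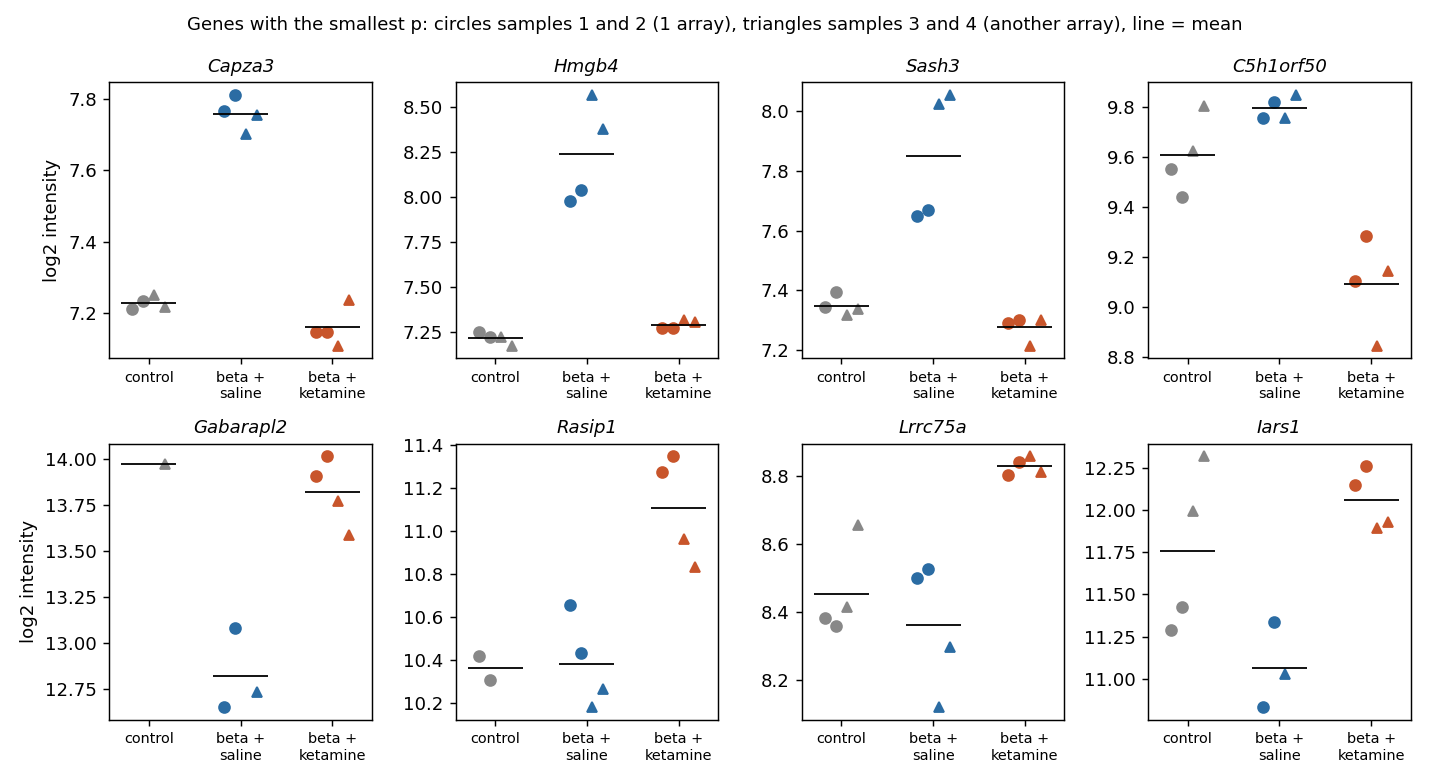
Log2 intensity of the 8 genes with the smallest p among those with a symbol, by group ("beta" is prenatal betamethasone); each point is 1 sample, circles are samples 1 and 2 of a group and triangles samples 3 and 4, and the line is the group mean. Capza3 lies between 7.70 and 7.81 in saline and between 7.11 and 7.24 in ketamine, and saline and ketamine do not overlap in any of the 8 panels.

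Without adjustment, p was under 0.05 for 363 genes higher after ketamine (2.15%) and 140 lower (0.83%). The groups did not overlap for 432 genes higher (2.56%) and 267 lower (1.58%), 4.15% together. Changes above 1.5-fold were estimated for 58 genes higher and 58 lower, and above 2-fold for 5 and 7. The median change of all genes was 0.03, and 57.7% of genes lay above 0, a shift that became −0.12 with median centring and 0.32 with 75th percentile scaling. With a median standard error of 0.122, the median 95% half-width of a change was 0.269, so a 1.5-fold change of normalized intensity would lie outside a typical interval around 0.

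The position of a spot on the array moved with these counts. Of the 363 genes higher at an unadjusted p under 0.05, 229 lay in rows 400 to 532 of the array's 532 rows, which held 3688 of the tested genes. The median change was 0.06 in rows 1 to 133, −0.03 in rows 134 to 266, −0.03 in rows 267 to 399 and 0.09 in rows 400 to 532. All 12 higher genes with the smallest p, described next, lay in rows 445 to 519, which held 12.5% of the tested genes and had a median change of 0.11. The 12 lower genes lay in rows 123 to 445. Once a surface trend of each array was removed, 11 of the 12 higher and 12 of the 12 lower genes kept their sign, and 6 and 9 had an unadjusted p under 0.05. The counts still moved with position after that removal. Higher and lower genes at an unadjusted p under 0.05 then numbered 11 and 137 in rows 1 to 133 (70 and 13 before). They numbered 131 and 16 in rows 134 to 266 (32 and 27 before) and 133 and 15 in rows 267 to 399 (32 and 48 before). In rows 400 to 532 they numbered 52 and 69 (229 and 52 before). The part of spot position in the differences was not tested beyond this.

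Among the 12 genes higher after ketamine with the smallest p, Gabarapl2 had the largest difference. It encodes a ubiquitin-like protein of the autophagosome membrane and was at 12.65, 13.08 and 12.73 in saline samples 1, 2 and 4 and at 13.91, 14.01, 13.77 and 13.59 in ketamine (change 1.03, SE 0.20, adjusted p = 0.953, limma). Saline sample 3 was dropped there because its spot was flagged as an outlier. Every ketamine sample was higher than the saline samples that were measured, but the other 2 probes of Gabarapl2 gave 0.28 (SE 0.16) and −0.12 (SE 0.09). Iars1, the cytosolic isoleucyl-tRNA synthetase, was at 10.83, 11.34 and 11.03 in saline samples 1 to 3 and at 12.15, 12.26, 11.89 and 11.93 in ketamine (change 0.95, SE 0.23). Saline sample 4, an outlier spot, was dropped from it, and the groups did not overlap. Rasip1, a Rap1 effector of endothelial cells, was at 10.66, 10.43, 10.18 and 10.26 in saline and 11.27, 11.35, 10.96 and 10.83 in ketamine (change 0.72, SE 0.16). The groups were apart on both arrays, with the higher values on the array of ketamine samples 1 and 2.

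Lrrc75a was the gene of this set whose 4 ketamine samples agreed most closely. It was at 8.50, 8.53, 8.12 and 8.30 in saline and at 8.80, 8.84, 8.86 and 8.81 in ketamine (change 0.47, SE 0.11). Hrh3, the histamine H3 receptor that limits transmitter release, was at 12.52, 12.75, 12.57 and 12.64 in saline and 13.24, 13.27, 12.82 and 12.92 in ketamine (change 0.44, SE 0.13), and its dimmer second probe gave 0.21 (SE 0.19). The choline transporter-like gene Slc44a2 differed by 0.41 on its tested probe and by −0.10 on the other one. Other members of the 12 were the neuronal adaptor Bex2 (0.72, saline sample 4 dropped), the urea cycle gene Otc, the mitochondrial NAD kinase Nadk2 (0.40), the TGF-beta receptor Tgfbr1 (0.39), the Tudor domain gene Tdrd7 (0.36) and the endocytic scaffold Itsn2 (0.29). Otc was well above background in 0 saline and 3 ketamine samples, so its difference is a bound of at least 1.33-fold higher. All of these had an adjusted p of 0.953.

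On the lower side, Ptprv, a receptor-type tyrosine phosphatase gene, was at 11.75, 11.94, 11.58 and 11.26 in saline and at 11.08, 10.84, 10.64 and 10.02 in ketamine (change −0.98, SE 0.25). Taldo1, the transaldolase of the pentose phosphate pathway, was at 13.029, 12.998, 13.032 and 13.157 in saline and at 12.540, 12.945, 11.839 and 12.133 in ketamine (change −0.69, SE 0.19). Its lowest values were on the array of ketamine samples 3 and 4. Sema4g, a semaphorin (−0.50), Efna4, an ephrin ligand (−0.44), Lmbr1l (−0.39), Pabpc1l (−0.38), the cytidine deaminase Apobec1 (−0.33) and Fam13b (−0.32) completed the 12, all with an adjusted p of 0.953. Of the 24 genes in both directions, 23 had groups that did not overlap, and all 24 differed from saline in the same direction on both ketamine arrays, as their selection by p favours. Relative to the median of all genes, 4 of the 24 turned with median centring and the same count with 75th percentile scaling: Capza3, Sash3, Lmbr1l and Pabpc1l in both cases. Sash3 also turned with the processed signals and with a stricter mask, and Slc44a2 once a surface trend was removed. That mask (5% of spots departing) left 9 of the 24 untested (37.5%), against 7.09% of all tested genes. It also takes areas where at least 5% but fewer than 10% of spots departed, and spots of these 9 genes lay in such areas. Over the whole of each of the 4 compared arrays, 0.47% to 3.66% of spots departed. The part of those areas in the result was not tested.

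The NMDA receptor, the target of ketamine, was measured through 6 of its 7 subunit genes, and none passed the test. Probes of 3 subunits are shown because they are the array's view of the drug's own target. Grin1 (chr3:3460217-3460350, − strand, an interval longer than the probe), Grin2b (chr4:172722609-172722668, − strand) and Grin2d (chr1:96309508-96309567, − strand) are given on rn4, 5′ to 3′, all in lower case.
Grin1: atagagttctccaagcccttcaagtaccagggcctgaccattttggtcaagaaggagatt
Grin2b: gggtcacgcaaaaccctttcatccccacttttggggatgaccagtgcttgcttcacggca
Grin2d: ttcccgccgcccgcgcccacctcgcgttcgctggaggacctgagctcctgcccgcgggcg
The Grin2d probe had 78.3% G and C, against 46.7% and 55.0% for the other 2 shown.

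Grin1, the obligatory subunit, was at 7.82, 8.03, 7.98 and 7.97 in saline and at 8.14, 8.16, 8.05 and 7.90 in ketamine (change 0.11, 95% interval −0.16 to 0.39). Grin2a, which replaces Grin2b at maturing synapses, was at 10.11, 9.97, 10.01 and 9.93 in saline and at 10.05, 10.17, 9.99 and 10.14 in ketamine (change 0.09, −0.24 to 0.41). Grin2b was at 8.24, 8.01, 8.15 and 8.00 and at 8.08, 8.12, 8.11 and 8.28 (change 0.05, −0.22 to 0.32). For these 3 genes the groups overlapped, and each interval leaves out changes of normalized intensity above 1.5-fold. Grin1 and Grin2b were well above background in all 8 samples but not far from the level of probes that were not. Capza3 and Hmgb4, for example, averaged 7.16 and 7.29 in ketamine. How a change in transcript amount would read at such intensities was not tested, so the limit covers normalized intensity only.

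Grin2c, mostly cerebellar and glial, was at 12.40, 12.29, 12.46 and 12.48 in saline and 12.66, 12.44, 12.44 and 12.59 in ketamine (change 0.12, −0.22 to 0.47). Grin2d, the subunit of interneurons and subcortical neurons, was at 15.32, 15.16, 15.29 and 14.77 and at 15.39, 15.69, 15.43 and 15.08 (change 0.26, −0.28 to 0.80). Grin3a, a subunit that lowers calcium entry in juvenile neurons, was at 10.955, 10.997, 11.013 and 10.783 in saline and at 9.625, 10.199, 10.855 and 11.112 in ketamine (change −0.49, −1.15 to 0.17). Its low values were confined to ketamine samples 1 and 2, and ketamine samples 3 and 4 lay within or just above the saline range. The median change of the 6 subunits was 0.10 beside 0.03 for all genes, but it lay below the median of all genes by 0.16 with either median centring or 75th percentile scaling and by 0.03 with the processed signals.

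**Figure D3:**
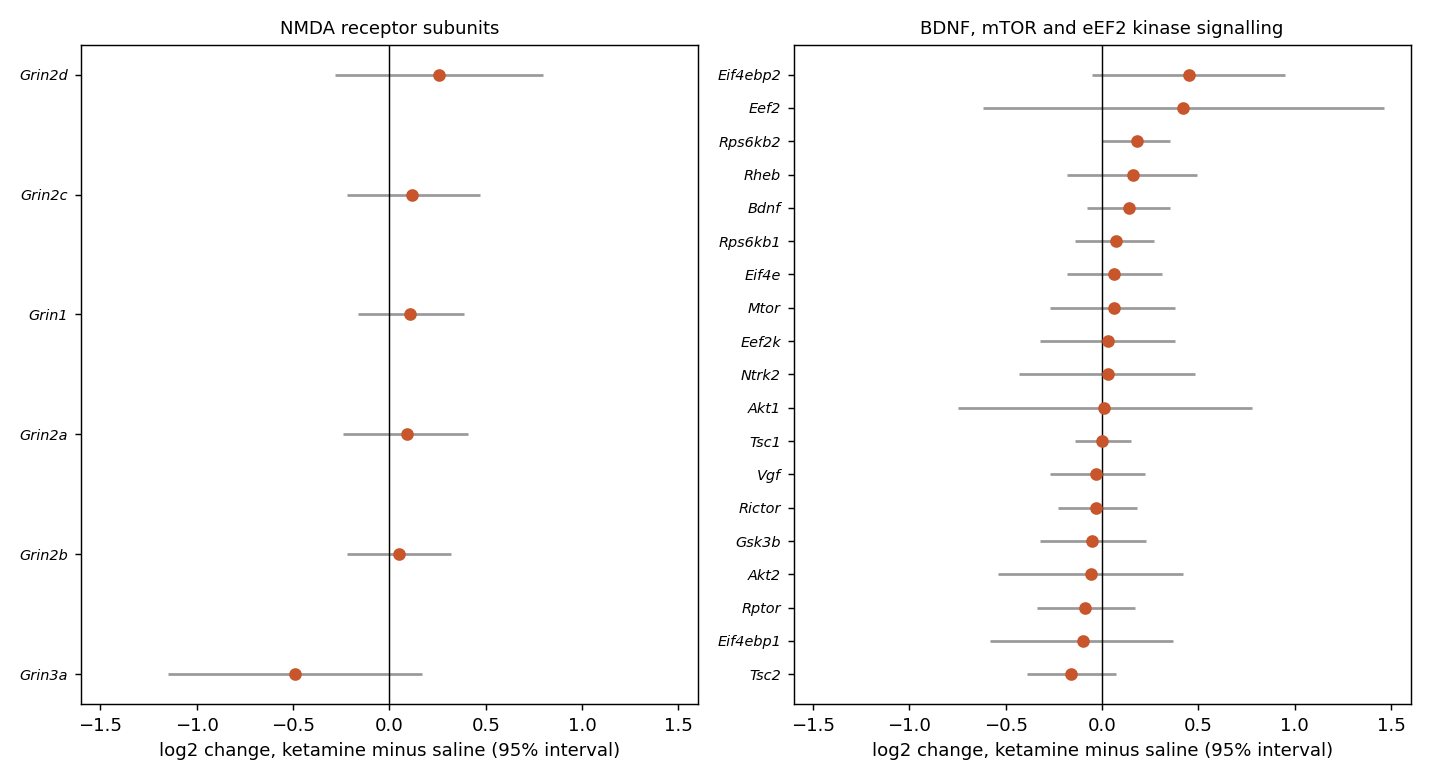
Log2 change, ketamine minus saline, with its 95% interval for 6 NMDA receptor subunits and 19 genes of BDNF, mTOR and eEF2 kinase signalling. Grin3a has the lowest estimate (−0.49) and Eif4ebp2 the highest (0.45), and the interval includes 0 for every gene but Rps6kb2, whose lower end is at 0.00.

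Genes of the rapid response pathway showed the same picture. Of 21 tested members, 12 were higher and 9 lower, with a median change of 0.01. No group pair was free of overlap, and 1 member, the S6 kinase gene Rps6kb2, had an unadjusted p under 0.05. Bdnf, the neurotrophin, was at 8.72, 8.58, 8.54 and 8.70 in saline and at 8.93, 8.81, 8.64 and 8.70 in ketamine (change 0.14, −0.08 to 0.35), and its receptor gene Ntrk2 differed by 0.03 (SE 0.21). Mtor was at 9.01, 9.09, 9.11 and 9.20 and at 9.20, 9.14, 9.17 and 9.13 (change 0.06, −0.27 to 0.38). The ketamine values of Mtor all lay within the saline range.

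Rps6kb2 was at 11.12, 11.06, 11.27 and 11.16 in saline and at 11.42, 11.32, 11.32 and 11.26 in ketamine (change 0.18, SE 0.08, adjusted p = 0.953, limma). Eif4ebp2, the neuronal repressor of cap-dependent translation, was at 9.16, 9.36, 9.25 and 9.58 in saline, and at means of 10.12 on the array of ketamine samples 1 and 2 and 9.46 on the other (change 0.45, SE 0.23). Eef2k, the kinase that silences elongation and is held active by resting NMDA currents, differed by 0.03 (SE 0.16), and its substrate Eef2 by 0.42 (SE 0.47). Within the mTOR branch, Rheb, the activating GTPase, was at 0.16, the kinase Rps6kb1 at 0.07, the cap-binding factor Eif4e at 0.06, Tsc1 at 0.00, Rictor at −0.03, Rptor at −0.09, the repressor Eif4ebp1 at −0.10 and Tsc2 at −0.16. The second probe of Tsc2 gave 0.22 (SE 0.17). Akt1 and Akt2, upstream kinases, differed by 0.01 and −0.06, Gsk3b by −0.05 and the neuropeptide precursor Vgf by −0.03.

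Activity-induced genes, transcripts that follow neuronal firing within minutes to hours, leaned upward without any member passing. Of 31 tested, 26 were higher (83.9%, beside 57.7% of all genes), the median change was 0.11, and none had an unadjusted p under 0.05 or groups without overlap. By sample, the list's median stood 0.21, 0.17, 0.04 and 0.05 above the saline mean in ketamine samples 1 to 4, and −0.02, −0.07, 0.01 and 0.09 from it in the saline samples. Ketamine samples 3 and 4 were therefore within the saline range, and samples 1 and 2 above it. By count, 24 of 31 members (77.4%) were above the saline mean on the array of ketamine samples 1 and 2. On the array of samples 3 and 4 it was 23 of 31 (74.2%), beside 58.3% and 54.5% of all genes. With median centring or 75th percentile scaling, the list lay 0.02 below the median of all genes.

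Junb, an AP-1 transcription factor, was at 12.57, 12.46, 12.53 and 12.68 in saline and at 13.54, 13.38, 12.55 and 12.74 in ketamine (change 0.49, −0.18 to 1.16). Nr4a1, an orphan nuclear receptor of the immediate early class, was at 12.80, 12.69, 12.90 and 13.12 and at 13.19, 13.15, 13.03 and 13.10 (change 0.24, −0.04 to 0.52). Jun differed by 0.23 (SE 0.13), the kinase gene Sik1 by 0.30 (SE 0.16) and Nr4a2 by −0.17 (SE 0.30). Dimmer second probes of Sik1 and Nr4a2 gave −0.07 (SE 0.10) and 0.21 (SE 0.28). For Junb, ketamine samples 1 and 2 were above the saline range, and sample 3 was within it.

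Apoptosis genes split evenly, with 10 higher and 10 lower of 20 tested and a median of −0.02. Cdkn1a, a p53 target that halts the cell cycle, was at 14.82, 14.86, 14.87 and 14.70 in saline and at 15.05, 15.13, 15.10 and 14.99 in ketamine (change 0.25, −0.13 to 0.64), and its groups did not overlap. Those of Bad were apart in the lower direction (change −0.10). So 1 of the 20 members was apart each way, beside 2.56% of all genes higher and 1.58% lower. Apaf1, the apoptosome scaffold, differed by −0.26, cytochrome c (Cycs) by −0.17 and its partner Diablo by −0.13. The second probe of Cycs, also well above background in all 8 samples, gave 0.33 (SE 0.16). Among 16 heat shock and chaperone genes, 11 were higher and the median was 0.11, which turned to 0.31 below the median of all genes with median centring or 75th percentile scaling, and to 0.01 below it with the processed signals. Hsp90aa1, the inducible cytosolic Hsp90, was at 14.55, 14.59, 14.49 and 14.56 in saline and at 15.35, 15.11, 14.66 and 14.62 in ketamine (change 0.39, −0.04 to 0.82). Other probes of Hsp90aa1, also well above background in all 8 samples, gave 0.09 (SE 0.16) and 0.42 (SE 0.21). The Hsp40 gene Dnajb1 was at 12.00, 11.82, 11.94 and 11.88 and at 11.11, 11.10, 11.95 and 11.94 (change −0.38, −0.81 to 0.04). Both departures were on the array of ketamine samples 1 and 2, in opposite directions.

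Among the other glutamate genes, the NMDA receptor scaffold and signalling list had 11 of 17 members higher, the AMPA and kainate list 10 of 15, and the metabotropic receptor and transport list 10 of 14, with medians of 0.05, 0.03 and 0.08. Grm4, a presynaptic group III receptor, was at 11.71, 11.82, 11.82 and 11.85 in saline and at 11.90, 12.12, 11.99 and 12.09 in ketamine (change 0.22, SE 0.09, adjusted p = 0.953, limma). Slc1a1, the neuronal glutamate transporter, was at 10.41, 10.34, 10.81 and 10.83 and at 11.23, 10.93, 11.02 and 10.83 (change 0.40, SE 0.18, adjusted p = 0.953, limma). These were the 2 genes of the metabotropic and transport list with groups apart in the higher direction, Slc1a1 by a margin lost in rounding. Neto1, an auxiliary subunit of kainate receptors, was at 11.24, 11.43, 11.22 and 11.34 and at 12.09, 12.14, 11.34 and 11.56 (change 0.47, SE 0.16, adjusted p = 0.953, limma). Most of its difference lay in ketamine samples 1 and 2, and sample 3 overlapped the saline range. Of the scaffold genes, Dlg4, which encodes PSD-95, differed by 0.37 (SE 0.26), Homer1 by 0.18 (SE 0.11), Camk2a by −0.17 (SE 0.11) and Shank1 by −0.23 (SE 0.19).

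GABA genes had 13 of 21 members higher and a median of 0.04. The synthetic enzyme Gad2 was at 10.19, 10.62, 10.18 and 10.64 in saline and at 11.20, 10.78, 10.67 and 10.41 in ketamine (change 0.36, SE 0.25), and its groups overlapped. Interneuron markers and neuropeptides had 10 of 18 higher and a median of 0.01. Calb2, calretinin of a set of interneurons, was at 13.09, 13.46, 13.15 and 13.47 in saline and at 13.75, 13.64, 13.57 and 13.49 in ketamine (change 0.32, −0.01 to 0.66), without overlap. Calb1 (0.48), Vip (0.36) and Npy (−0.19) overlapped between the groups. A dimmer second probe of Npy gave 0.15 (SE 0.18).

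Ion channel genes had 26 of 33 members higher (78.8%), a median of 0.07 and 4 members with groups apart, all higher, beside 2.56% of all genes with groups apart in that direction. Scn8a, the sodium channel of the axon initial segment, was at 8.82, 8.97, 8.80 and 8.93 in saline and at 9.39, 9.43, 9.02 and 8.99 in ketamine (change 0.33, SE 0.13, adjusted p = 0.953, limma). Scn2a, the sodium channel of immature axons, was at 13.41, 13.41, 13.57 and 13.51 and at 13.79, 13.66, 13.69 and 13.68 (change 0.23, SE 0.12). Cacnb4, an auxiliary calcium channel subunit, was at 10.90, 11.10, 10.93 and 11.02 and at 11.99, 11.89, 11.23 and 11.15 (change 0.58, SE 0.28). A dimmer second probe of Cacnb4 gave 0.12 (SE 0.09). Kcnc1, the fast potassium channel Kv3.1, had the lowest value of the list (−0.29). Members above the saline mean numbered 23 of 33 on the array of ketamine samples 1 and 2 and 24 of 33 on the other one, beside 58.3% and 54.5% of all genes. Relative to all genes, the list's median was 0.05 higher, and 0.01 lower once a surface trend of each array was removed.

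Synaptic vesicle genes had 17 of 27 higher and a median of 0.08. Pclo, the active-zone scaffold piccolo, was at 9.16, 9.51, 9.33 and 9.40 in saline and at 9.78, 9.89, 9.66 and 9.47 in ketamine (change 0.35, SE 0.14, adjusted p = 0.953, limma). Sv2c, a vesicle glycoprotein gene, was at 8.08, 8.07, 9.53 and 9.44 and at 8.05, 8.07, 8.09 and 8.14 (change −0.69, SE 0.31). The difference in Sv2c came from saline samples 3 and 4, which share an array, while saline samples 1 and 2 lay at the ketamine level. Infantile spasms and epileptic encephalopathy genes had 15 of 23 higher and a median of 0.04.

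Glucocorticoid receptors and responsive genes, relevant because every animal had been exposed to betamethasone, had 10 of 21 higher and a median of 0.00. The mineralocorticoid receptor Nr3c2 differed by 0.27 (SE 0.13) and the glucocorticoid-induced leucine zipper Tsc22d3 by 0.38 (SE 0.31). Cebpd (−0.22), Angptl4 (−0.30) and Lcn2 (−0.36), all induced by glucocorticoids, overlapped between the groups. Monoamine, opioid and cholinergic genes had 14 of 25 higher and a median of 0.00. Ache, acetylcholinesterase, was at 11.44, 11.43, 11.70 and 11.77 in saline and at 11.22, 11.30, 11.36 and 11.18 in ketamine (change −0.32, −0.73 to 0.08), and Chrm2, the muscarinic M2 receptor, differed by 0.14 (SE 0.08); both had groups apart. Htr7, a serotonin receptor, differed by 0.22 (SE 0.14).

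Of the housekeeping lists, cytosolic ribosomal proteins had 28 of 74 members higher (37.8%, beside 57.7% of all genes) and a median of −0.06. Relative to the median of all genes the list was at −0.08, and under the 28 alternatives it ran from −0.50 to −0.03. By sample, the list's median stood −0.11, −0.06, −0.01 and −0.02 from the saline mean in ketamine samples 1 to 4. It stood 0.01, 0.04, −0.04 and −0.01 from it in the saline samples. Ketamine samples 3 and 4 were therefore within the saline range, and samples 1 and 2 below it. Rps19 was at 15.29, 15.18, 15.16 and 15.19 in saline and at 14.69, 15.06, 14.86 and 14.89 in ketamine (change −0.33, SE 0.13, adjusted p = 0.953, limma). Its second probe gave −0.08 (SE 0.12). Rpl39 had the highest estimate of the list (1.08, SE 0.53), but its saline samples 3 and 4 were at 12.16 and 12.77 and the other 6 samples at 14.62 to 14.93. The second probe of Rpl39 gave −0.27 (SE 0.20). Oxidative phosphorylation subunits had 38 of 67 higher and a median of 0.02, with Ndufs8 at 0.53 (SE 0.23) and Ndufa3 at −0.35 (SE 0.23). Autophagy genes, among them Gabarapl2, had 12 of 21 higher and a median of 0.05. Wipi1, a phosphoinositide-binding autophagy protein, was at 8.21, 8.22, 8.04 and 8.13 and at 8.61, 8.56, 8.30 and 8.24 (change 0.28, SE 0.11, adjusted p = 0.953, limma). Map1lc3a differed by 0.30 (saline sample 3 dropped), and the lysosomal Lamp2 by −0.44 because of ketamine samples 1 and 2 (8.69 and 9.46, beside 9.92 to 10.08 in the other 6 samples).

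Circadian clock genes split 7 and 7 with a median of 0.01, Npas2 differing by 0.39 (SE 0.18). Cell division genes had 12 of 21 higher and a median of 0.01, and perineuronal net and matrix genes 5 of 12 higher and a median of −0.04. In the cholesterol list 11 of 22 were higher, with a median of 0.02; Msmo1, a demethylating oxidase of sterol synthesis, was at 13.95, 14.47, 13.87 and 13.99 in saline and at 14.88, 14.95, 14.31 and 14.29 in ketamine (change 0.54, SE 0.21, adjusted p = 0.953, limma). Saline sample 2 overlapped ketamine samples 3 and 4. Cortical excitatory neuron genes had 9 of 17 higher and a median of 0.00.

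Glial lists did not share a direction. Oligodendrocyte and myelin genes had 14 of 25 higher (median 0.01), astrocyte genes 5 of 15 (median −0.04), microglia genes 10 of 17 (median 0.09) and cytokine genes 7 of 18 (median −0.04). P2ry12, the purinergic receptor of resting microglia, was at 10.92, 10.89, 10.77 and 10.67 in saline and at 11.30, 11.16, 11.17 and 11.11 in ketamine (change 0.37, SE 0.12, adjusted p = 0.953, limma). All 4 ketamine samples were above the saline range, on both arrays. The defining microglia markers Aif1, C1qa, Csf1r, Cx3cr1 and Tmem119 had a summed log2 intensity of 14.15 to 14.21 in saline and 14.03 to 14.31 in ketamine, and 3 of the 5 were higher. Fcer1g, an Fc receptor subunit, was at 11.791, 11.380, 11.646 and 11.431 and at 10.697, 10.862, 11.493 and 11.443 (change −0.44, SE 0.21). Against the astrocyte list, the defining astrocyte markers tested (Aqp4, Gfap, Gja1 and Slc1a3) were all higher, with a median of 0.19 and a summed log2 intensity of 15.81 to 15.83 in saline and 15.82 to 16.14 in ketamine. Aqp4, the astrocyte water channel, was at 14.43, 14.47, 14.40 and 14.47 and at 14.92, 14.58, 14.52 and 14.57 (change 0.21, SE 0.15), and the oligodendrocyte factor Olig2 at 11.328, 11.515, 11.517 and 11.550 and at 10.630, 10.710, 11.505 and 11.633 (change −0.36, SE 0.21). In bulk tissue, fewer cells of a type and less RNA per cell cannot be told apart. Endothelial and pericyte genes had 11 of 19 higher and a median of 0.02, with the pericyte channel genes Abcc9 and Kcnj8 at 0.25 (SE 0.10) and 0.29 (SE 0.14).

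**Figure D4:**
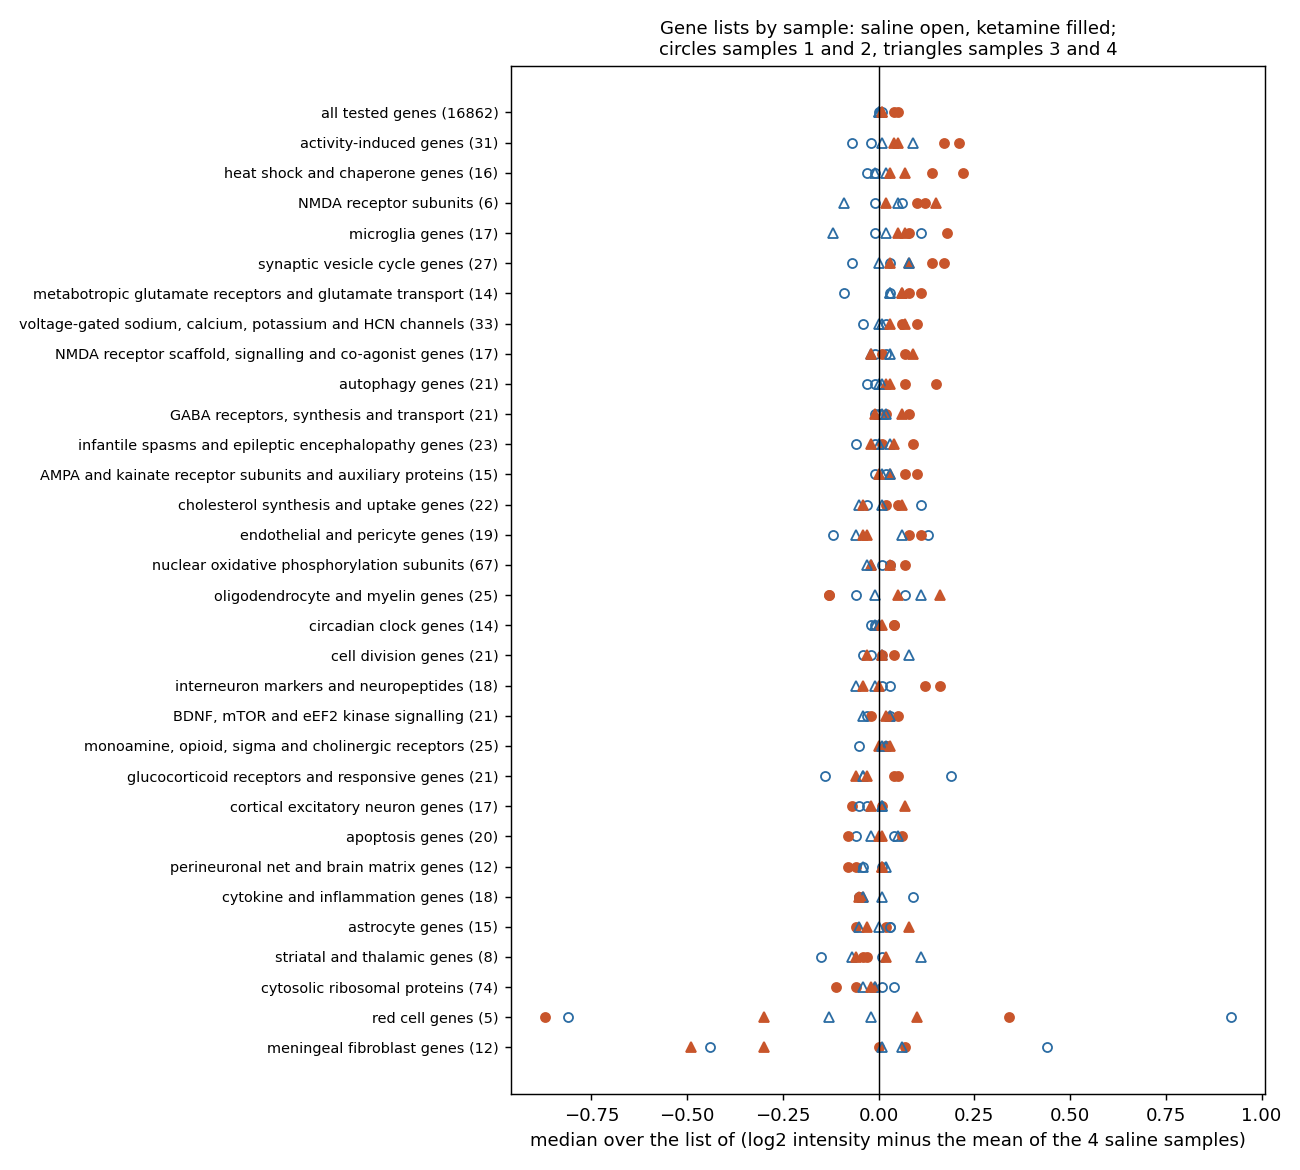
Median, over the tested members of each gene list (number in brackets), of the log2 intensity minus the mean of the 4 saline samples, for each of the 8 samples; open blue marks are saline, filled orange marks ketamine, circles samples 1 and 2 and triangles samples 3 and 4. Most lists stay within 0.25 of 0, the activity-induced list reaches 0.21 in ketamine sample 1, and the red cell and meningeal lists spread most within both groups.

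Blood and meningeal transcripts varied widely among animals of both groups. Meningeal fibroblast genes had 11 of 12 members lower and a median of −0.20, but the list's median ran from −0.44 to 0.44 around the saline mean in the saline samples and from −0.49 to 0.07 in the ketamine samples. Ptgds, the prostaglandin D synthase of the leptomeninges, was at 17.09, 15.37, 15.58 and 16.09 in saline and at 16.30, 15.93, 15.71 and 14.15 in ketamine (change −0.51, SE 0.67). The list no longer lay below all genes once ketamine samples 3 and 4, which share an array, were left out, or with array quality weights. Red cell genes had 4 of 5 members lower and a median of −0.20, with sample medians from −0.81 to 0.92 in saline and from −0.87 to 0.34 in ketamine. Alas2, a heme synthesis enzyme of red cell precursors, was at 13.21, 10.97, 11.96 and 11.79 and at 10.91, 11.98, 12.12 and 11.61 (change −0.33, SE 0.63). Saline samples 1 and 2 were the highest and the lowest of their group for Alas2, although they shared an array, and leaving out saline sample 1 or ketamine sample 1, or weighting arrays by quality, turned the list's direction relative to all genes.

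**Figure D5:**
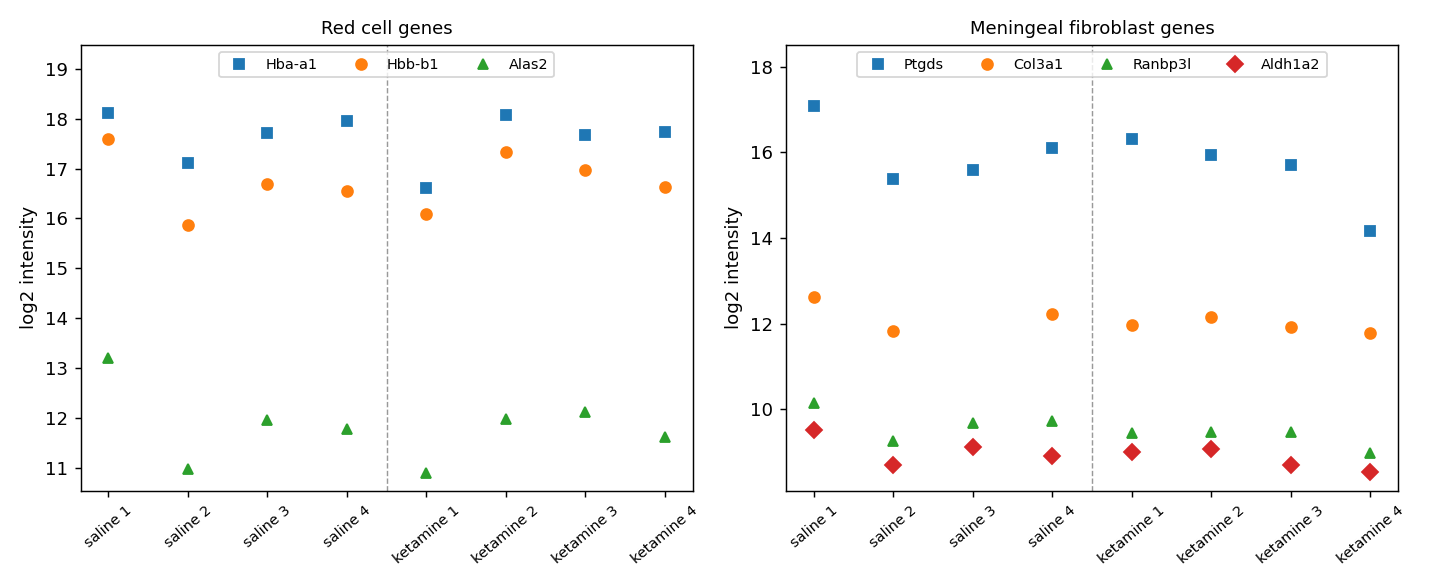
Log2 intensity of 3 red cell genes (left) and 4 meningeal fibroblast genes (right) in each of the 8 samples; each symbol is 1 gene in 1 sample, and Col3a1 has no value in saline sample 3. Alas2 runs from 10.97 to 13.21 in saline and from 10.91 to 12.12 in ketamine, and Ptgds from 15.37 to 17.09 and from 14.15 to 16.30.

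Over all 32 lists, 14 of 650 distinct tested members had an unadjusted p under 0.05 (12 higher, 2 lower). This is 2.15%, beside 2.98% of all tested genes. Of the 12 higher members, Scn8a and Pclo lay in rows 61 and 62 of the array. The others, among them P2ry12, Neto1, Msmo1, Wipi1 and Slc1a1, lay in rows 404 to 523. Rows 400 to 532 held 229 of the 363 genes higher at that threshold, and 52 once a surface trend was removed. The part of spot position in these members was not tested. When the samples of one ketamine array were left out, the count of called genes became 32 (15 higher, 17 lower) from samples 3 and 4 alone and 367 (214 higher, 153 lower) from samples 1 and 2 alone. It was 17 and 11 when the array of saline samples 1 and 2 or that of saline samples 3 and 4 was left out. Each of these fits sets a single array against others, so array and group cannot be told apart in it. The test with the array as the replicate called 0 genes (254 at unadjusted p under 0.05), and treating the 2 animals of an array as unrelated called 2.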

How the data were processed

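The scanner gave an intensity and a local background for each spot and dye. Per the file headers these came from Feature Extraction, version 11.0.1.1 for the 4 compared arrays and 11.5.1.1 for the control ones (the submitters' processing notes name 10.7.3.1). A deposited value table gave a ratio to each column's median, and it was used as an alternative; its columns for the control samples matched other control samples' scanner data, those of the 8 compared samples their own. All log2 values here derive from those deposited intensities.

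Mean foreground was corrected with median local background by normexp (offset 50), then normalized by loess within and Aquantile between the 6 arrays, each channel becoming a sample. Windows of 15 by 15 spots in which at least 10% departed by over 1 log2 unit from the other arrays were masked. Control and outlier spots were left out and spots of a probe averaged. A probe was kept if 3 or more of the 4 samples of either group were well above background and each group had 3 values or more, and the brightest probe of each gene was tested (16862 genes). limma 3.58.1 (R 4.3.3, statmod 1.5.0) fitted all 12 samples with a dye term and the array as random block (correlation 0.452). P-values were 2-sided and adjusted by Benjamini-Hochberg over all genes, with a threshold of 0.05. The model was tested on simulated data.

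Probe names came from reference tables by accession (18809), symbol (2533) or synonym (407), and 8618 kept the name in the file. Members and the 32 lists were chosen with earlier results of these data known. Named genes were those called, the 12 higher and 12 lower with a symbol and the smallest p, all NMDA receptor and rapid response genes, and of every other list up to 3 by p and the extremes. No label gives litters, so p-values measure the spread between these samples. Replicate numbers did not pair the samples, and the alternatives included a replicate block. Some items are not reported here.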

Additional observations from a re-analysis of the deposited data

Results flagged for a closer look

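Among 386 groups of 4 values checked (161 named genes and 32 lists in each of 2 groups), 12 held a sample far from the other 3, where chance flags about 1 in 20 groups of independent samples. In the ketamine group, Aqp4 was 14.92 in sample 1 beside 14.52 to 14.58, Fam13b was 10.69 in sample 1 beside 10.91 to 10.96, and Sc5d was 11.05 in sample 2 beside 11.29 to 11.30. Sash3 was 7.21 in ketamine sample 3 beside 7.29 to 7.30, all of them near background. Ranbp3l, a meningeal gene, was 8.99 in ketamine sample 4 beside 9.45 to 9.47. Ttr, a choroid plexus transcript, was 9.19 in ketamine sample 4 beside 7.50 to 7.59.

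In the saline group, Fdft1 was 12.07 in sample 2 beside 11.92 to 11.93, Olig2 was 11.33 in sample 1 beside 11.51 to 11.55, and Sik1 was 9.85 in sample 4 beside 9.71 to 9.73. The list of metabotropic receptors and glutamate transport had a median of −0.09 in saline sample 1 beside 0.03 in the others. The monoamine, opioid and cholinergic list had −0.05 in saline sample 1 beside 0.01 to 0.02, and 0.00 in ketamine sample 3 beside 0.02 to 0.03.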

How the results depend on the processing

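The count of called genes was 1 in the analysis as reported and rested on Capza3. It was 0 without masking, with a surface trend removed, with median centring, with 75th percentile scaling (loess left out too), with all 8 samples required above background, with the 8 samples alone, with the array as the replicate and with the replicate block (array as random block too). It was 2 without the array block, without the dye term and with array quality weights, 3 with the processed signals, and 45 with the deposited value table, for which the estimated array correlation was −0.418 and Capza3 was not tested. Without single samples or arrays it ran from 0 to 367. The cause of these moves was not tested. Capza3 was at 0.43 with 75th percentile scaling, where the median of all genes was 0.32. Lists with a median above that of all genes numbered 13 of 32, 5 with median centring and 5 with 75th percentile scaling, and from 12 to 20 without single samples or arrays. No called gene changed under the 5% mask, the unfiltered probes or the mean of a gene's probes, where Capza3 stayed the 1 call. Under the replicate block the smallest adjusted p was 0.19; correlations between same-numbered samples were −0.003, 0.042, 0.136 and −0.023. Signal near background limits Capza3, Hmgb4 and Sash3, and 2 arrays per group limit every gene.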
